A study of Drosophila melanogaster with 6 samples.

Results

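The odorant receptors (Or), gustatory receptors (Gr) and ionotropic receptors (Ir) of Drosophila melanogaster were followed in mRNA sequencing of 3 pools of wild type Dahomey males. Members were the genes whose symbol begins with Or, Gr or Ir and a digit, plus Orco, selected on a sum of at least 10 counts over the 6 libraries. Ir40a, whose counts are shared with unrelated genes, and Gr32a, Gr33a, Or67d, Or47b and Or88a were left out by name. Of 187 annotated receptor genes, 181 were considered and 99 were members, 32 Or, 34 Gr and 33 Ir, among 16942 genes listed in any library. The ratios between pools took no part in the rule, but 4 of the 6 libraries in the sum were head-thorax, and Ir40a was dropped for its counts.

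All 3 pools came from males that had been exposed to rival males, and no pool of unexposed males was analysed here. The males were raised at 100 larvae per vial, kept 10 per vial after eclosion and placed alone at 1 day old for 5 days. One pool held abdomens after 2 h with rivals, the next held heads with thoraces after 2 h, and the last held heads with thoraces after 26 h. Each pool was made from 40 body parts, and its RNA was divided into 2 technical libraries that were sequenced on separate lanes. The spread between the libraries of a pool is therefore technical, and p-values compare these pools and not the conditions. With 1 pool for each group, the effect of time or body part and that of the single pool cannot be told apart.

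Chemosensory neurons of the fly carry receptors of these families on their sensory dendrites. An odorant receptor that binds an odour works as a complex with Orco, the shared co-receptor, in neurons of the antenna and maxillary palp. Gustatory receptors detect sugars and bitter compounds on the mouthparts, pharynx, legs and wings, and a pair of them detects carbon dioxide in the antenna. Ionotropic receptors, relatives of ionotropic glutamate receptors, pair a tuning subunit with the co-receptors Ir25a, Ir8a or Ir76b and serve smell, taste, temperature and humidity sensing.

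The receptors were rare transcripts. Library totals ran from 21070598 to 34217543 counts, and the median member had 54 counts summed over all 6 libraries. Just inside the threshold, with 10 or 11 summed counts, stood Or22b, Or22c, Or42b, Or74a, Gr10b, Gr28a, Gr89a, Ir10a and Ir48c. Just outside it, with 9, stood Or94b, Gr36a, Ir51a, Ir52b, Ir84a and Ir94b. Of the 82 receptor genes under the threshold, 12 were listed in no library, and the other 70 held 291 counts together. Ir8a, a co-receptor for acid-sensing receptors, had 5 counts in all and was not a member.

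Many receptor genes lie inside or across other genes, so counts were sorted by this first. In the BDGP6.54 annotation 55 members overlapped no other gene on either strand and shared identical counts with none, and these are called members with reads of their own (18 Or, 19 Gr and 18 Ir). Whether the counting used strand is not given in the sources used here, so reads of an overlapping pair cannot be told apart. Ir41a, Ir93a, Ir85a, Ir75d and Ir94d, which all overlap other annotated features, held 83.1% to 89.6% of all member counts in each library. No feature that Ir41a or Ir93a overlaps had counts or shared exon bases with it. Ir41a spans 68 transposable elements. Ir93a, a co-receptor for temperature and humidity sensing, holds a Doc element and mir-1011. The Ir93a level per kilobase of exon was 38.4 times that of Orco in the 2 h head-thorax, where Ir93a had 10175 counts. In that pool KaiR1D, 242 bases away on the same strand, had 643 counts. RpS30, 282 bases away on the opposite strand, had 17580. The part of these neighbours in the Ir93a counts was not tested. In all 17 of 17 members nested in a protein-coding gene that is not a receptor, the counts of the larger gene were no lower in any library.

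Summed over members with reads of their own, the families made up 20.7 to 22.7 counts per 1000000 total counts in every library, but the classes were divided differently between the pools. Levels are given below as CPM (counts per 1000000) of the TMM effective library size, as mean ± SD over the 2 technical libraries. The own-read Or sum was 2.98 ± 0.272 CPM in abdomen, 7.84 ± 0.724 in the 2 h head-thorax and 8.96 ± 0.489 in the 26 h head-thorax. Over all 32 Or members, overlapping ones included, the sums lay closer together, at 21.5 ± 0.818, 22.7 ± 0.00296 and 23.0 ± 0.277 CPM. The own-read Gr sum was higher in abdomen, at 7.63 ± 0.328, 2.72 ± 0.0988 and 3.16 ± 0.0780 CPM. The own-read Ir sum was 8.81 ± 1.04, 11.7 ± 0.886 and 10.95 ± 0.0178 CPM in the same order. The abdomen and head-thorax libraries did not overlap in any of the 3 own-read class sums. Orco alone held 17.4% of own-read Or counts in abdomen (exact 95% interval 12.2% to 23.8%), against 45.1% (40.2% to 50.0%) and 44.9% (40.6% to 49.2%) in the 2 h and 26 h head-thorax pools. Such intervals cover counting error only. In such bulk pools, fewer cells of a type and less RNA per cell cannot be told apart.

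Abdomen and head-thorax at 2 h were compared with edgeR's quasi-likelihood test over all genes, with Benjamini-Hochberg adjustment, and a gene was called at an adjusted p under 0.05 and a change of at least 2-fold. Of the 99 members, 64 had enough counts to be tested, and 27 were higher and 22 lower in abdomen. Among all 14694 genes tested, 35.6% were called higher and 21.7% lower. Among the 5010 tested genes with 10 to under 1000 summed counts, 54.1% were called higher in abdomen and 16.5% lower. The members Ir41a, Ir93a, Ir85a, Ir75d, Ir94d and Or43b lay above that range. That range was chosen after the receptor counts had been seen. A rare gene enters the test mainly through the pool where it is high, so counts over tested members are descriptions. The same holds for the p-values of members found almost only in 1 body part, such as Or23a, Or67b, Or63a, Or85e, Gr22f, Gr64a, Gr93d and Ir7c.

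The calls are given by class beside these shares, which are over tested genes, and the difference between classes was not tested. The tested members were 18 Or, 22 Gr and 24 Ir. Of the 32 Or members, 5 were higher and 10 lower in abdomen, 3 were not called and 14 were not tested. Of the 34 Gr members, 12 were higher, 4 lower, 6 not called and 12 not tested. The shares of the 22 tested Gr members that were called lay near those of the genes with 10 to under 1000 summed counts. The 33 Ir members were split into 10 higher, 8 lower, 6 not called and 9 not tested. With every member kept, the median log2 ratio of abdomen to head-thorax was -1.24 for Or, 1.33 for Gr and 0.05 for Ir, against 0.09 over all genes and 1.37 over the 5933 genes with 10 to under 1000 counts. With members absent from a pool set at their bound, and those at 3 counts or fewer in both pools left out, the Or and Gr medians were again -1.24 and 1.33 and the Ir median was 0.67.

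**Figure D1:**
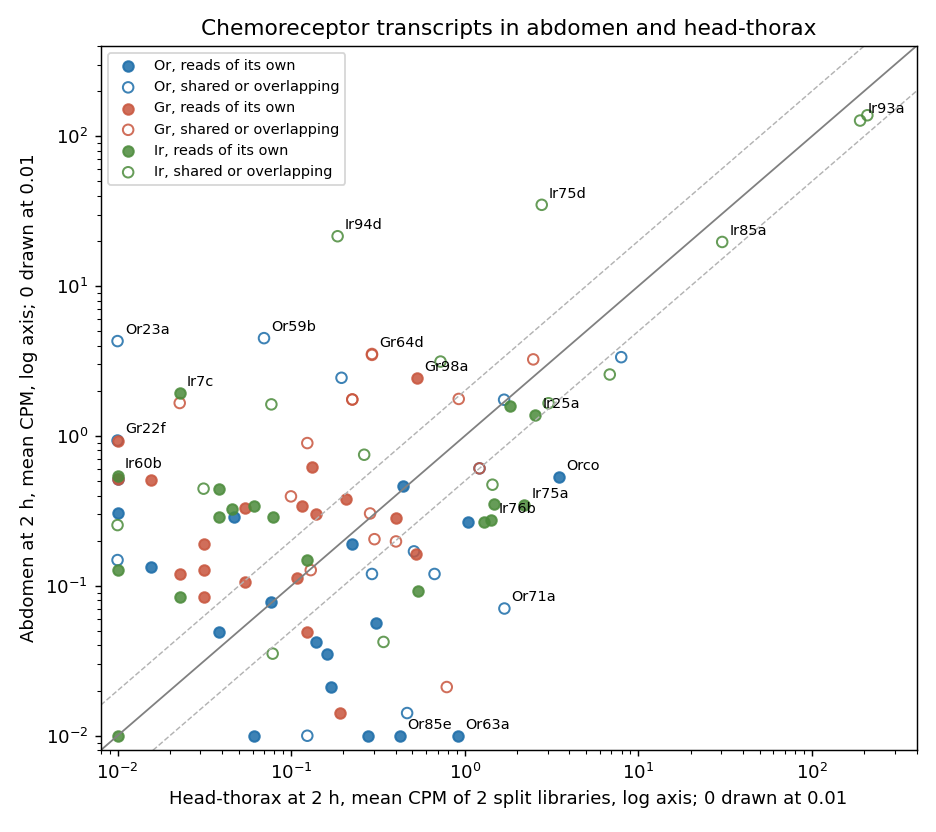
Mean CPM of each of the 99 receptor genes in head-thorax (horizontal axis) and abdomen (vertical axis) at 2 h, both on log axes, with a level of 0 drawn at 0.01. Filled points have reads of their own, open points overlap or share counts with another gene, the solid line marks equal levels and the dashed lines a 2-fold difference; Orco lies below the lines and Ir7c, Gr22f and Gr98a lie above them.

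**Figure D2:**
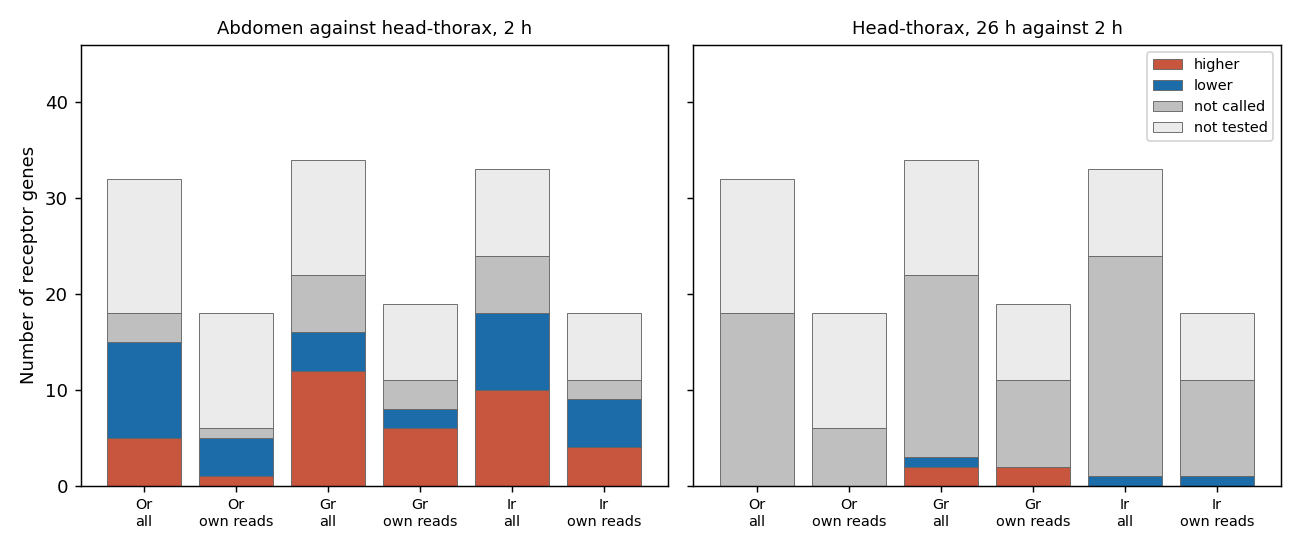
Number of receptor genes called higher, lower or not called, and not tested, for each class with all members and with members that have reads of their own. In abdomen against head-thorax, 10 of 32 Or genes were lower and 5 higher, and 12 of 34 Gr genes were higher and 4 lower, while at 26 h against 2 h only 4 genes of 99 were called. Among the 22 tested Gr genes, the abdomen shares lay near those of genes with 10 to under 1000 summed counts.

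Orco, the co-receptor on which odorant receptor complexes depend, had 13 and 18 counts in the abdomen libraries, 111 and 77 in the 2 h head-thorax, and 101 and 139 in the 26 h head-thorax. Both abdomen libraries lay below all 4 head-thorax libraries. Its level was 3.49 ± 0.0274 CPM in the 2 h head-thorax against 0.530 ± 0.0278 CPM in abdomen, a log2 ratio of -2.72 ± 0.24 (SE; edgeR adjusted p = 2.4e-18). Pooled counts put head-thorax 6.64 times above abdomen (exact 95% counting interval 4.52 to 10.0). The gene has no overlapping neighbour, and the annotation places it on chromosome arm 3R at 5407183 to 5412406.

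Among the tuning receptors, those that give an odorant receptor complex its odour range, 5 members had no abdomen counts. Of these, Or63a and Or85e were called lower, and Or45a, Or49b and Or85d were not tested. Or63a, known from larval olfactory neurons, was absent from both abdomen libraries, with 16 and 29 counts in the 2 h head-thorax and 22 and 24 at 26 h. Its level in abdomen was at least 16.4-fold lower, taking 3 counts in the pool as the limit that a count of 0 allows (edgeR adjusted p = 9.0e-11). Such a bound takes the counts of the other pool as they stand, and the exact 95% limit, which allows for their error as well, was 12.8 for Or63a. Or85e, a maxillary palp receptor, likewise had no count in abdomen and 14, 9, 15 and 17 in the head-thorax libraries, at least 8.39-fold lower in abdomen (edgeR adjusted p = 2.7e-07). Or85f, an antennal receptor known to respond to odours of parasitoid wasps, had 4 and 13 counts in abdomen, 32 and 24 in the 2 h head-thorax, and 41 and 48 at 26 h. The abdomen counts of Or85f were low but not 0, and its log2 ratio was -1.84 ± 0.38 (edgeR adjusted p = 7.6e-06). CG34117, 19 bases away on the opposite strand, had 441 counts in the abdomen pool and 1328 in the 2 h head-thorax. Its part in the Or85f counts was not tested. Or63a, Or85e, Or85f and Orco were the Or members called lower that had reads of their own.

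Of the 7 maxillary palp members, 3 were lower in abdomen, 1 was higher, 1 was not called and 2 were not tested. Or71a, a palp receptor nested in Plp on the same strand, had 2 and 2 counts in abdomen and 60 and 33 in the 2 h head-thorax (log2 ratio -4.58 ± 0.46, edgeR adjusted p = 6.5e-16). Plp counts moved the same way as those of Or71a, from 895 and 1348 to 5398 and 3746, and their part in the result was not tested. Or42a, the palp member that was not called, had 12 and 15 counts in abdomen against 15 and 9 in the 2 h head-thorax (log2 ratio 0.04 ± 0.41, edgeR adjusted p = 0.93). The counting interval of its ratio ran from 0.571 to 1.86.

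Of the 16 antennal members, 4 were lower in abdomen, 4 higher and 8 not tested, and of the 8 members known from larval neurons, 2 were lower, 2 not called and 4 not tested. Or47a, an antennal receptor for fruit esters, had 0 and 1 counts in abdomen and 21 and 6 in the 2 h head-thorax, 29.6 times higher in head-thorax with a wide counting interval of 4.87 to 1210. It overlaps Cpr47Ea, a cuticle protein gene, which went from 1 and 5 counts to 108 and 80. Or83a was 5.47 times higher in head-thorax (interval 2.40 to 14.6), from 3 and 4 counts to 18 and 17, and is nested in CG1172, whose counts did not move that way (714 and 1199 against 523 and 373).

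The Or genes higher in abdomen were Or56a, Or23a, Or67b, Or59b and Or59c. Or56a, the antennal receptor for geosmin, had 9 and 23 counts in abdomen, none in the 2 h head-thorax, and 1 and 0 at 26 h, at least 9.74-fold higher in abdomen (edgeR adjusted p = 3.3e-08). It was the only one of these with reads of its own, and without the second abdomen library it no longer had enough counts to be tested. Or56a reached the member threshold only through the abdomen pool, so its values are a description. Or23a was at least 76.4-fold higher, with 106 and 145 counts in abdomen and none in the 2 h head-thorax. It overlaps Prosbeta4R2, a proteasome subunit gene, which had 481 and 763 counts in abdomen and 3 and 0 in the 2 h head-thorax. The part of Prosbeta4R2 in the Or23a counts was not tested. Or67b, which overlaps the ends of Cyp40 and CG3335, had 22 and 33 counts against none (at least 16.7-fold). Or59b, the antennal acetate receptor, and Or59c, a palp receptor, both lie inside CG43795 and were higher in abdomen at log2 ratios of 5.86 ± 0.35 and 3.43 ± 0.35. CG43795 itself had 1384 and 2091 counts in abdomen and 499 and 303 in the 2 h head-thorax, and its part in these results was not tested.

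Of the Ir co-receptors, Ir76b was called lower in abdomen and Ir25a was not called. Ir76b, which also serves salt and amino acid taste, had 9 and 6 counts in abdomen, 47 and 30 in the 2 h head-thorax, and 39 and 49 at 26 h. All head-thorax libraries lay above both abdomen libraries, and the log2 ratio was -2.47 ± 0.36 (edgeR adjusted p = 1.8e-09). Ir25a, the most broadly used Ir co-receptor, had 36 and 43 counts in abdomen, 81 and 56 in the 2 h head-thorax, and 72 and 71 at 26 h. Its log2 ratio of -0.92 ± 0.21 passed the adjusted p (edgeR, 3.9e-05) but not the 2-fold limit, which it passed when the first abdomen library was left out. The difference between the 2 co-receptors was not tested.

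The antennal Ir genes include the acid and amine sensors of the antenna and the temperature and humidity sensors. Of 11 antennal members, 4 were lower in abdomen and 3 higher. Of the 5 with reads of their own, Ir75a, Ir75b and Ir31a were lower, Ir68a was not called and Ir75c was not tested. Ir75a, the acetic acid receptor, had 9 and 11 counts in abdomen, 65 and 52 in the 2 h head-thorax, and 52 and 56 at 26 h (log2 ratio -2.66 ± 0.30, edgeR adjusted p = 1.6e-13). Ir75b, its neighbour in a tandem array and a receptor for longer acids, had 8 and 7 counts against 31 and 35 (-2.25 ± 0.38, edgeR adjusted p = 1.0e-07). Neither gene had overlapping libraries between abdomen and head-thorax. Ir75c, the next gene of the same array, ran the opposite way at low counts, with 10 and 8 in abdomen, 0 and 2 in the 2 h head-thorax and none at 26 h (ratio 8.22, counting interval 1.97 to 73.1).

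Ir31a, which responds to a keto acid, was 6.35 times higher in head-thorax (interval 2.43 to 21.0), with 3 and 2 counts in abdomen and 17 and 12 in the 2 h head-thorax. Ir68a, which is needed for sensing moist air, did not divide the body parts, with 42 and 49 counts in abdomen and 53 and 44 in the 2 h head-thorax (log2 ratio -0.22 ± 0.22, edgeR adjusted p = 0.34; ratio interval 0.637 to 1.15). The antennal members called higher in abdomen, Ir75d, Ir92a and Ir21a, all overlap other annotated features. Ir92a, an amine receptor, had 40 and 55 counts against 2 and 2 (21.7 times, interval 8.20 to 81.3), and the only feature it overlaps is a transposable element with no counts. Ir75d, in COX6AL2, was 12.6 times higher (10.7 to 15.0). COX6AL2, on the same strand, had 2156 and 3065 counts in abdomen against 93 and 69 in the 2 h head-thorax. Its part in the Ir75d counts was not tested.

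The divergent Ir genes, mostly known from taste organs, were a mixed group in abdomen. Of 20 members, 7 were higher, 3 lower, 2 not called and 8 not tested. With reads of their own, 4 of 11 were higher and 1 was lower. Ir7c, which acts in taste neurons for high salt, had 48 and 65 counts in the abdomen libraries, and 0, 1, 0 and 1 in the head-thorax libraries. Abdomen lay 103 times above head-thorax at 2 h, with a counting interval of 18.2 to 4110 (edgeR adjusted p = 5.1e-18). Ir7c reached the member threshold only through the abdomen pool, so these values are a description. An antisense RNA gene 754 bases away, asRNA:CR43615, had 75 counts in the abdomen pool and none in the 2 h head-thorax, while Ir7d, 116 bases away on the opposite strand, had 1 and none. Whether reads of a neighbour run into Ir7c was not tested.

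Ir60b, a pharyngeal receptor known to limit sucrose intake, had 9 and 25 counts in abdomen and none in any head-thorax library, at least 10.4-fold higher in abdomen (exact lower limit 7.97; edgeR adjusted p = 1.6e-08). Ir60b became a member through the abdomen pool alone, so these values are a description. It dropped out of the test without the second abdomen library and was not called by DESeq2. Ir56b, a receptor for appetitive salt taste, had 9 and 18 counts in abdomen and 1 and 1 in the 2 h head-thorax (12.3 times, interval 3.10 to 107). Ir56d, a fatty acid taste receptor beside it, had 8 and 12 against 1 and 2 (6.09 times, interval 1.81 to 32.0). The call of Ir56d was lost without the first head-thorax library at 2 h, at a log2 ratio of 1.91 (edgeR adjusted p = 0.0547). Ir56c, in the same group of genes, was too rare to test, with 6 and 9 counts in abdomen and none in the 2 h head-thorax (at least 4.57-fold higher; exact lower limit 3.28).

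Ir68b was the divergent member with reads of its own that was lower in abdomen, with 12 and 7 counts there and 48 and 32 in the 2 h head-thorax (log2 ratio -2.19 ± 0.34, edgeR adjusted p = 1.2e-08). Ir60a, nested in nord, had 2 and 0 counts in abdomen and 13 and 6 in the 2 h head-thorax, 10.4 times higher in head-thorax (interval 2.51 to 92.1). The call of Ir60a was lost without the second abdomen library, at a log2 ratio of -1.99 (edgeR adjusted p = 0.0709). Ir94d, which overlaps CG17380, had the highest ratio among the overlapping divergent members, 115 times higher in abdomen (interval 62.3 to 240). Its counts went from 6 and 4 in the 2 h head-thorax to 528 and 730 in abdomen. CG17380 went from 5 and 2 counts to 613 and 873, and its part in the Ir94d counts was not tested.

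The sugar receptors moved in one direction where they were called. Of 9 sugar members, 7 were higher in abdomen, none was lower, and Gr5a and Gr43a were not called. Their median log2 ratio was 2.82, against 1.37 over all genes with 10 to under 1000 counts. Gr64a to Gr64f lie next to each other on chromosome arm 3L, between 4026769 and 4037575 in the annotation. The annotated Gr64b and Gr64c overlap, as do Gr64d and Gr64e, so the 6 are not separate measurements. Gr64b and Gr64c had identical counts, 42 and 61 in abdomen, 10 and 3 in the 2 h head-thorax, and 5 and 5 at 26 h. Gr64d had 87 and 119 counts in abdomen and 7 and 8 in the 2 h head-thorax, and Gr64e had 86 and 117 against 7 and 8. The antisense gene asRNA:CR45042, which lies within both, moved with them from 2 and 2 counts in head-thorax to 40 and 46 in abdomen.

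Gr64a and Gr61a were the sugar members with reads of their own. Gr64a, a sugar receptor, had 14 and 15 counts in abdomen, and 1, 0, 1 and 0 in the head-thorax libraries (26.5 times, counting interval 4.39 to 1080; edgeR adjusted p = 1.2e-06). Gr61a, a glucose receptor, had 18 and 17 in abdomen, 4 and 3 in the 2 h head-thorax, and 4 and 7 at 26 h (log2 ratio 2.16 ± 0.53, edgeR adjusted p = 0.00013). The abdomen libraries lay above all head-thorax libraries for both genes. Gr64a reached the member threshold only through the abdomen pool, so its values are a description. Gr64b and Gr64c lie 5 bases from Gr64a on the same strand, with 103 counts each in the abdomen pool and 13 in the 2 h head-thorax, and their part in the Gr64a counts was not tested. Gr61a has Cep290 225 bases away on the same strand, with 1499 counts in the abdomen pool and 37 in the 2 h head-thorax, and its part in the Gr61a counts was not tested. Gr64f, which works together with other sugar receptors, was 6.66 times higher (interval 3.01 to 17.4), with 25 and 26 counts against 5 and 2.

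Gr5a, the trehalose receptor, had 4 and 8 counts in abdomen and 14 and 8 in the 2 h head-thorax (log2 ratio -0.99 ± 0.52, edgeR adjusted p = 0.0645). Gr43a, a fructose sensor of taste organs and brain, had 42 and 62 against 24 and 24 (0.98 ± 0.26, edgeR adjusted p = 0.00028), just under the 2-fold limit. Gr43a was called under DESeq2's size factors and raw library totals, and when the second head-thorax library at 2 h was left out. Both overlap another gene, an antisense RNA for Gr5a and Dhx15 for Gr43a.

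Outside the sugar group, 5 of 20 other Gr members were higher in abdomen, 3 were lower, 2 were not called and 10 were not tested. Gr98a had the highest level per kilobase of exon among own-read Gr genes in abdomen, at 1.27 CPM per kb. It had 52 and 95 counts in abdomen, 18 and 11 in the 2 h head-thorax, and 10 and 19 at 26 h (log2 ratio 2.20 ± 0.27, edgeR adjusted p = 3.1e-12). Its nearest neighbour, Cyp6a18, lies 5023 bases away on the same strand and had 3513 counts in the abdomen pool against 91. Gr22f had 24 and 30 counts in abdomen and none in the 2 h head-thorax, at least 16.4-fold higher, and Gr22c had 11 and 20 against none, at least 9.44-fold higher. The counting error of the abdomen counts lowers these bounds to 12.9 and 7.23. Gr22c lies between Gr22b and Gr22d, which had at most 4 counts in any pool. Gr22f has CG17650 1835 bases away on the same strand, with 316 counts in the abdomen pool and 3 in the 2 h head-thorax, and its part in the Gr22f counts was not tested. Gr22c and Gr22f reached the member threshold only through the abdomen pool, so their values are a description. Gr22c could not be tested without the second abdomen library. Gr93d had 47 and 47 counts in abdomen and 0 and 1 in the 2 h head-thorax (85.9 times, interval 15.0 to 3430), and asRNA:CR44087 on the other strand over the same bases had nearly the same counts, 50 and 48 against 0 and 1.

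The Gr genes lower in abdomen were Gr2a, Gr21a, Gr28b and Gr10a. Gr21a, which forms the carbon dioxide receptor with Gr63a, had 0 and 1 counts in abdomen, 5 and 5 in the 2 h head-thorax, and 18 and 19 at 26 h. The abdomen libraries lay below all others, with a log2 ratio of -3.16 ± 1.06 to head-thorax at 2 h (edgeR adjusted p = 0.0045), and the call was lost without the first abdomen library at -2.55 (edgeR adjusted p = 0.0625). Gr63a was too rare to test, with 2 and 5 counts in abdomen, 4 and 2 in the 2 h head-thorax, and 1 and 2 at 26 h. Gr28b, which has roles in sensing heat and light, had 3 and 7 counts against 16 and 12 (-1.59 ± 0.51, edgeR adjusted p = 0.0027), a call not made by DESeq2 (adjusted p = 0.0529) or with the 2-fold limit inside the model (edgeR adjusted p = 0.0768). Gr2a had 1 and 0 counts in abdomen and 27 and 16 in the 2 h head-thorax (47.1 times higher in head-thorax, interval 8.01 to 1900).

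Gr2a overlaps futsch, a neuronal cytoskeleton gene with 108 and 157 counts in abdomen and 8337 and 5431 in the 2 h head-thorax. The part of futsch in the Gr2a counts was not tested. Gr10a and Or10a lie over each other and had identical counts, 2.04 times higher in head-thorax (interval 1.35 to 3.13). Without the first abdomen library their log2 ratio was -0.85 and without the first head-thorax library at 2 h it was -0.40, neither past the 2-fold limit. None of the 3 broadly expressed bitter receptor members was called. Gr66a, the marker of bitter neurons, had 8 and 8 counts in abdomen, 14 and 8 in the 2 h head-thorax, and 17 and 13 at 26 h (log2 ratio -0.58 ± 0.48, edgeR adjusted p = 0.25; ratio interval 0.326 to 1.32).

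**Figure D3:**
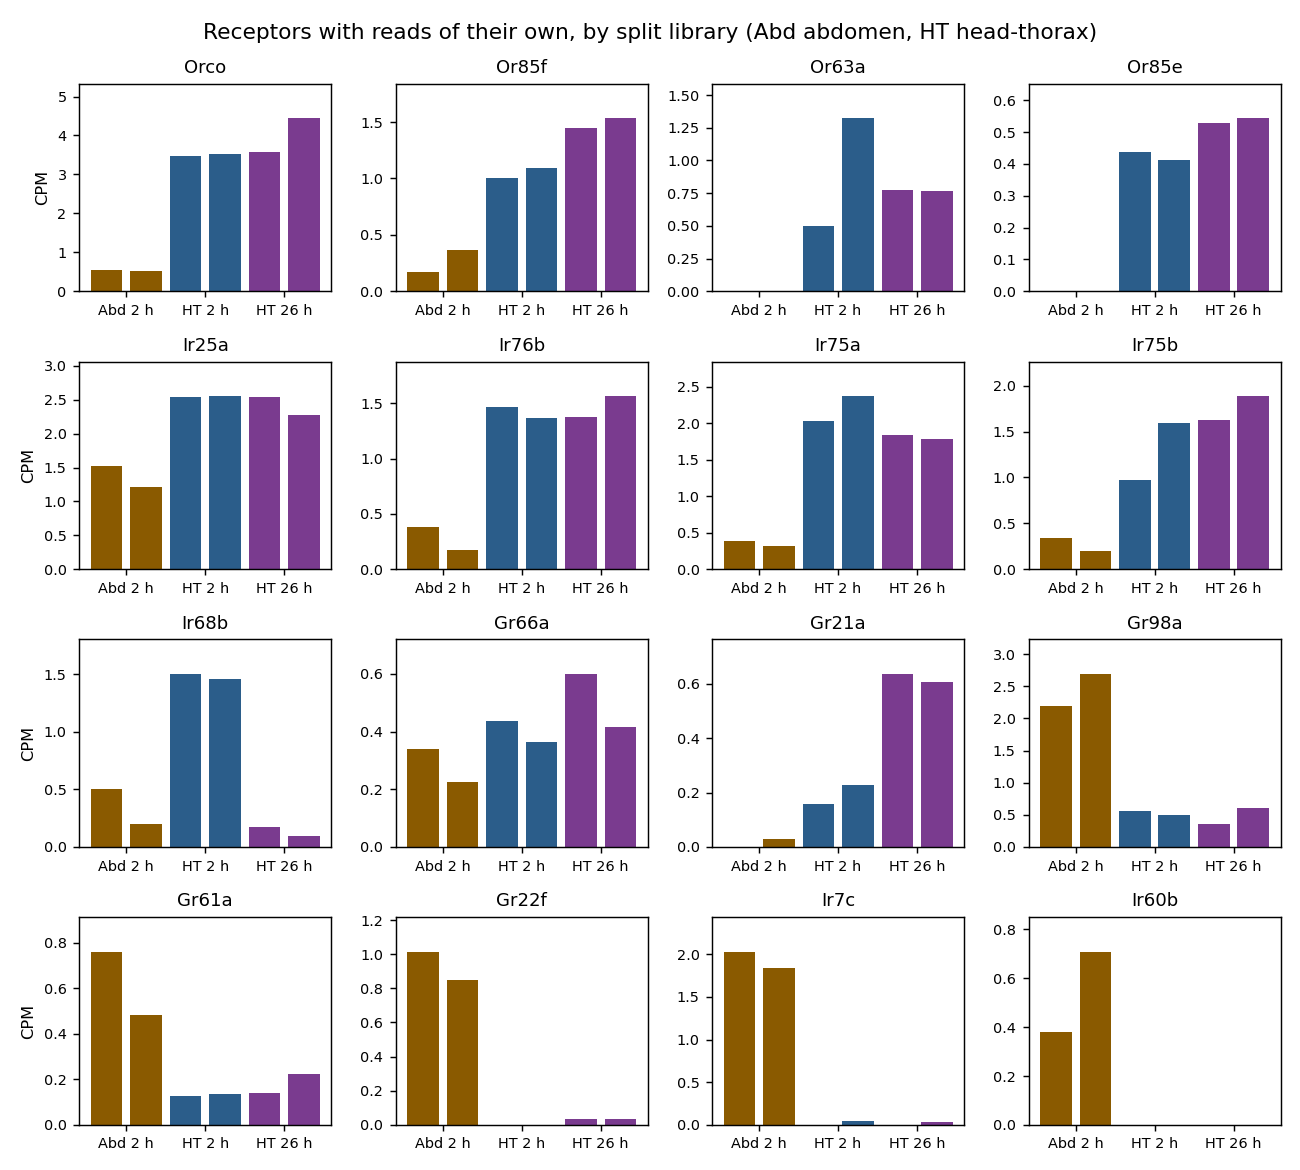
CPM (vertical axes, each from 0) of 16 receptor genes with reads of their own in each of the 2 split libraries of each pool; bars are single libraries. Orco, Or63a, Or85e and Ir75a are low or absent in both abdomen libraries, Gr98a, Gr22f, Ir7c and Ir60b are high in both, and Ir68b and Gr21a differ between head-thorax at 2 h and 26 h.

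Per kilobase of exon, which allows genes to be compared, the order of own-read receptors differed between the body parts. In head-thorax at 2 h Orco led the Or genes at 1.80 CPM per kb, followed by Or85f at 0.889, Or63a at 0.531 and Or42a at 0.344. The leading Ir genes there were Ir75a at 1.11 CPM per kb, Ir68b at 0.776, Ir68a at 0.751 and Ir25a at 0.710, and the leading Gr genes were Gr98a at 0.278, Gr66a at 0.254, Gr59f at 0.170 and Gr28b at 0.123. Odorant and ionotropic receptors therefore had higher levels per gene there than gustatory receptors among these leading genes. In abdomen the leading Gr genes were Gr98a at 1.27 CPM per kb, Gr22f at 0.820, Gr22c at 0.448 and Gr64a at 0.342. The leading Ir genes in abdomen were Ir7c at 0.821 CPM per kb, Ir68a at 0.647, Ir25a at 0.382 and Ir60b at 0.307, and the leading Or genes were Or56a at 0.410, Or42a at 0.364, Orco at 0.273 and Or59a at 0.267. Orco thus came first among odorant receptors in head-thorax and below Or56a and Or42a in abdomen, where Or59a, next in the order, differed from it by less than the library spread. That abdomen order rests on few counts, 13 and 18 for Orco, 9 and 23 for Or56a and 12 and 15 for Or42a, and was not tested. At 26 h the head-thorax order again began with Orco at 2.06 CPM per kb and Or85f at 1.26, while Ir75b at 0.965 and Ir75a at 0.914 led the Ir genes and Gr47b at 0.332 and Gr66a at 0.321 led the Gr genes.

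Between head-thorax at 26 h and at 2 h, few receptors differed. Of the 64 tested members, 2 were called higher at 26 h, 2 lower and 60 not called. No Or gene was called by edgeR, by DESeq2 or by the exact binomial test. DESeq2 gave no adjusted p for some rare members, Gr21a, Gr47b and Gr2a among them, and could not call those. At an unadjusted p under 0.05, 3 of the 18 tested Or genes stood out in edgeR. Over all 14694 genes tested, 6.21% were called higher and 1.50% lower, and over genes with 10 to under 1000 summed counts 6.43% and 2.81%. The median log2 ratio of 26 h to 2 h was 0.00 for Or, -0.14 for Gr and 0.00 for Ir, against 0.00 over all genes. The co-receptors differed by less than the test could call, with log2 ratios of 0.20 ± 0.15 for Orco (edgeR adjusted p = 0.29), -0.08 ± 0.18 for Ir25a (0.76) and 0.05 ± 0.24 for Ir76b (0.93).

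Ir68b was lower at 26 h, at 5 and 3 counts against 48 and 32 at 2 h, so the libraries of the times did not overlap. Its log2 ratio was -3.43 ± 0.42 (edgeR adjusted p = 2.4e-11), 11.1 times higher at 2 h (counting interval 5.36 to 26.5). The abdomen pool, with 12 and 7 counts of Ir68b, was closer to the 26 h pool than to the 2 h head-thorax pool. Of the nearest genes, yps, 337 bases away, had 9901 counts at 2 h and 10590 at 26 h, and CG34241, 585 bases away, had 10 and 6. Gr2a was also lower at 26 h, with 1 and 4 counts against 27 and 16 (log2 ratio -3.19 ± 0.54, edgeR adjusted p = 4.7e-07). The counts of futsch, which overlaps Gr2a, went the other way, from 8337 and 5431 at 2 h to 13682 and 14190 at 26 h.

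Gr21a and Gr47b were called higher at 26 h. Gr21a, the carbon dioxide receptor subunit, went from 5 and 5 counts at 2 h to 18 and 19 at 26 h (log2 ratio 1.72 ± 0.48, edgeR adjusted p = 0.0020). Gr47b had 3 and 4 counts at 2 h, 16 and 11 at 26 h, and 9 and 8 in abdomen (1.77 ± 0.57, edgeR adjusted p = 0.0080). The 2 times did not overlap in either gene. The calls were not firm: without the first library of the 2 h pool the ratios were 1.43 (edgeR adjusted p = 0.0878) for Gr21a and 1.29 (0.192) for Gr47b. Gr47b was also lost without the first 26 h library (1.41, edgeR adjusted p = 0.149), and neither passed with the 2-fold limit inside the model (edgeR adjusted p = 0.454 and 0.537). DESeq2 gave no adjusted p for Gr21a, Gr47b or Gr2a.

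A further 6 members passed the adjusted p but not the 2-fold limit, and 5 of them, Gr39a, Gr43a, Ir41a, Ir85a and Ir93a, were higher at 26 h. Gr43a, the fructose sensor, went from 24 and 24 counts at 2 h to 49 and 51 at 26 h (log2 ratio 0.91 ± 0.26, edgeR adjusted p = 0.0025), and was called when the second library of the 2 h pool was left out. Gr39a, a receptor with several alternative first exons, had 71 and 60 counts at 2 h and 125 and 118 at 26 h (0.74 ± 0.16, edgeR adjusted p = 7.8e-05). Both overlap other genes, and in neither did the libraries of the times overlap. Or45b, known from larval neurons and lying within an antisense RNA gene, was the 1 that was lower, with 45 and 43 counts against 32 and 29 (-0.67 ± 0.25, edgeR adjusted p = 0.0240).

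Ir7e was named after its values were seen. It was absent from both 2 h pools and had 9 and 18 counts at 26 h, at least 8.13-fold higher than head-thorax at 2 h. It became a member through the 26 h pool alone and had too few counts for the main test, so its values are a description.

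**Figure D4:**
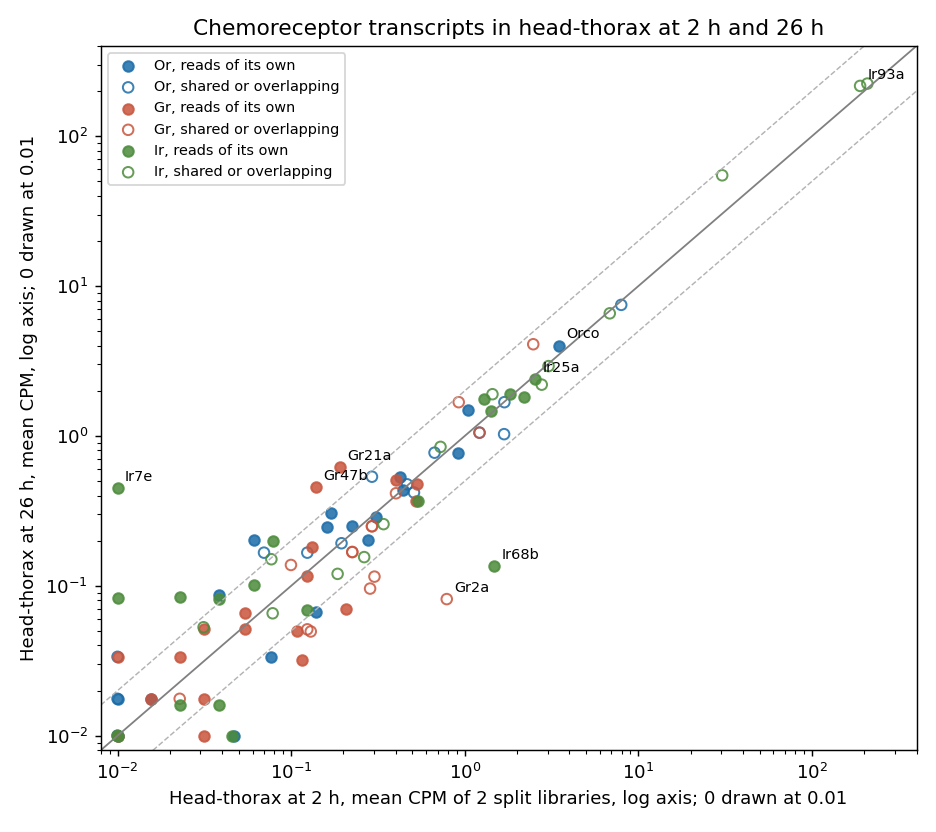
Mean CPM of each of the 99 receptor genes in the 2 h head-thorax (horizontal axis) and 26 h (vertical axis), both on log axes, with a level of 0 drawn at 0.01, and symbols and lines for own reads, overlap and a 2-fold difference as in the plot of abdomen against head-thorax. Most genes above 0.3 CPM lie between the 2-fold lines, and Ir68b and Gr2a lie below them.

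No receptor was called different between the 2 technical libraries of a pool by the exact binomial test (two-sided, gene by gene) with adjustment over all genes of the pool. None of 67 members tested in abdomen, 51 in the 2 h head-thorax or 53 at 26 h differed, while 1.83%, 0.638% and 0.459% of all genes tested in those pools did. At an unadjusted p under 0.05 the member counts were 0, 6 and 1. The 6 were Gr10a, Or10a, Ir41a, Ir75b, Or59c and Or63a, and the 1 at 26 h was again Or59c, with 10 and 1 counts after 11 and 1 at 2 h.

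Other genes of chemosensory neurons and sensilla were taken from a list of 18. In abdomen 10 were lower, 3 higher and 5 not called, while 21.7% of all genes tested were called lower and 35.6% higher. The lower ones were the odorant-binding and related proteins lush, Obp83a, Obp83b, Obp28a, Obp19d, Obp69a and a10, and the pheromone-sensing channels ppk23, ppk25 and ppk29. Of these, Obp69a, ppk25 and ppk29 overlap other genes. Snmp1, Snmp2, ATP8B, Amt and pain were not called, at log2 ratios from -0.86 (ATP8B) to -0.20 (Snmp2). Obp28a had 1 and 0 counts in abdomen and 291 and 170 in the 2 h head-thorax (edgeR adjusted p = 2.8e-40), and ppk23 had 1 and 2 against 60 and 48 (edgeR adjusted p = 3.2e-18). The 3 higher were TrpA1, which overlaps another gene, and acj6 and pdm3, transcription factors of olfactory neurons that also overlap other genes. At 26 h against 2 h 1 of the 18 was lower, ppk23, at 20 and 26 counts (log2 ratio -1.37 ± 0.25, edgeR adjusted p = 3.5e-06), and none was higher. The shares over all genes tested were 1.50% lower and 6.21% higher.

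The eye, male reproductive organ and neuron markers matched the labelled body parts. The 4 eye genes summed to 2.41 to 5.54 CPM in the abdomen libraries and to 8870 to 9606 CPM in head-thorax, and the 4 genes of male reproductive organs to 4788 to 4812 CPM in abdomen and 6.57 to 18.5 CPM in the other pools. The 4 neuron genes summed to 962 to 1062 CPM in head-thorax, against 72.4 to 74.7 CPM in abdomen, and all 4 were called lower in abdomen. The 3 enteroendocrine peptides, whose gut cells are known to express some Gr genes, summed to 72.2 to 82.0 CPM in head-thorax, against 36.3 to 36.5 CPM in abdomen, and 2 of the 3 were called lower in abdomen. These bulk levels do not give the level of the peptides in gut cells alone. The part of these tissues in the receptor differences was not tested.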

How the data were processed

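The data were deposited tables of whole-number counts per gene, 1 for each of the 6 libraries, made by the authors from single-end reads of 50 nt, per the labels and the series' design text; the aligner, annotation, build and use of strand are not given in any source used here. Gene identifiers were matched to the BDGP6.54 annotation, which gave symbols, exon lengths and overlaps (16735 of 16942 matched). Counts were fitted in 1 model over all 6 libraries with edgeR 4.0.16 in R 4.3.3 (TMM scaling, filterByExpr at its defaults, quasi-likelihood test, Benjamini-Hochberg over all 14694 genes). This left 3 residual degrees of freedom and a technical coefficient of variation of 1.63%. Ratios of pooled counts carry exact 95% intervals, and a gene absent from a pool was bounded with 3 counts per pool; both cover counting error only. The tests were tried on simulated counts first. Alternatives included DESeq2 1.42.0.

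Members and gene lists were chosen with earlier results of these data known. Named genes were the co-receptors, the 4 highest own-read members per class and pool by CPM per kb of exon, up to 6 called members per class and direction by the size of the log2 ratio, the sugar and carbon dioxide receptors, the members at the threshold and the genes that overlap a named member. Gr39a, Ir56c, Ir56d, Ir75c, Ir7e and Or45b were named after their values were seen. No sequence is shown.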

Additional observations from a re-analysis of the deposited data

How the results depend on the processing

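Of 99 members, 35 had too few counts to test. In abdomen against head-thorax, Or genes called higher (5) were 8 with no filter and 8 by the exact binomial test. Restricted to members with reads of their own, the counts were 1 Or higher and 4 lower, 6 Gr higher and 2 lower, 4 Ir higher and 5 lower, and at 26 h 1 lower. Gr genes called lower (4) were 2 by DESeq2's Wald test and 2 with the 2-fold limit inside the model, under which the 26 h count of higher genes was 0. Leaving out 1 library at a time gave 4 to 7 Or higher and 10 to 12 lower, 11 to 15 Gr higher and 2 to 4 lower, 8 to 13 Ir higher and 7 to 9 lower, and 2 to 4 higher and 2 to 3 lower at 26 h. The low Gr count came without the first abdomen library, and the high 26 h count without the second library of the 2 h head-thorax pool. The summed CPM of all Or members, whose log2 ratio of abdomen to head-thorax was -0.08, gave 0.063 with DESeq2's size factors and 0.128 with raw totals, which moved the median of all genes by 0.14 and 0.21. At 26 h against 2 h that sum gave -0.08 with raw totals (0.02 otherwise), and the Ir sum gave -0.10 with own-read members only (0.20 over all). No direction of a called gene reversed under any alternative run.

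The library numbers did not pair the pools, with correlations of deviations from -0.003 to 0.058 over 14694 genes. With the replicate block, 27 members were higher and 20 lower in abdomen, losing Gr10a and Or10a, and 2 were higher and 2 lower at 26 h. The cause of the changes in call was not tested.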
